A study of Xenopus laevis with 6 samples.

Results

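The genes described here encode the enzymes that break histidine down to glutamate. They are hal.1.L and hal.2.S (histidine ammonia-lyase), uroc1.L (urocanase), amdhd1.L (imidazolonepropionase) and ftcd.L (formiminotransferase cyclodeaminase). Every probe set whose only symbol in the platform annotation was one of these names was taken, which gave 5 probe sets for 5 genes, 1 each, out of 15491 probe sets in all and 7531 genes with a symbol of their own. The 5 genes were chosen by their pathway and with their measured intensities in these organs already known, so their organ differences are described without a test. The frog Xenopus laevis is allotetraploid, and the endings .L and .S tell its long-chromosome gene copies from its short-chromosome ones.

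The arrays measured total RNA from pancreas buds, livers and stomachs from stage 42 embryos, which are swimming tadpoles. Each organ was collected from embryos of mixed sex in 2 separate isolations, numbered 1 and 2, and gave 1 Affymetrix array per isolation, 6 arrays in all. No treatment or genotype differed between the groups, and each bud held endoderm with its surrounding mesoderm. The number of embryos in an isolation was not given in the sources used here. In such bulk tissue, fewer cells of a type and less RNA per cell cannot be told apart.

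Histidine breakdown runs through these enzymes in sequence. Histidine ammonia-lyase removes ammonia from histidine and leaves urocanate, urocanase turns urocanate into imidazolonepropionate, and imidazolonepropionase opens its ring to formiminoglutamate. Formiminotransferase cyclodeaminase then passes the formimino group to tetrahydrofolate, which yields glutamate and feeds the one-carbon pool of folate. In mammals the pathway is known mainly from liver, and its ammonia-lyase also from skin.

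The brightest markers of the labelled organs were found in the buds. Each gene shown was picked as the one with the highest mean of its list in its own organ, so it does not stand for its list. Of the 12 endocrine pancreas genes 6, and of the 18 exocrine genes 1, had a lower mean in pancreas than in stomach. The chymotrypsin gene ctrb1.L had a mean intensity of 20723 ± 3507 in pancreas buds, 258 ± 163 in livers and 3040 ± 439 in stomachs (SD, n = 2 each, as for every mean below). Insulin, ins.S, was at 5641 ± 317 in pancreas, 44.1 ± 6.34 in liver and 56.0 ± 34.3 in stomach. The plasma protein gene ambp.L was at 1121 ± 606 in pancreas, 19058 ± 3288 in liver and 308 ± 7.01 in stomach, and the proton pump gene atp4b.S at 50.6 ± 64.3 in pancreas, 14.0 ± 0.757 in liver and 4703 ± 3448 in stomach. A further probe set of ambp.L read 660 and 998 in pancreas, 14159 and 13394 in liver and 1931 and 2216 in stomach. There liver was again highest, but stomach lay above pancreas. The remaining probe sets of ambp.L differed little between the organs. Intensities are on the linear scale deposited by the authors, with a median of 100 on each array, and the values of different probe sets cannot be set against each other.

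Transcripts of 4 of the 5 genes had the same order in the 3 organs: highest in pancreas, lower in liver and lowest in stomach. These were hal.2.S, uroc1.L, amdhd1.L and ftcd.L, which together cover every step of the pathway. Their pancreas levels were 2.60-fold to 6.89-fold those of liver and 14.7-fold to 35.3-fold those of stomach. In each of these 4 genes the pancreas arrays lay above both liver arrays, and the liver arrays above both stomach arrays. The other ammonia-lyase gene, hal.1.L, was at about the same low intensity in all 3 organs.

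For the entry step, hal.2.S read 6900 and 5249 in pancreas, 1138 and 671 in liver and 148 and 196 in stomach, isolation 1 before isolation 2. No array of 1 organ reached into the range of another. Its geometric mean in pancreas was 6.89-fold that in liver (log2 difference 2.78, SE 0.345) and 35.3-fold that in stomach (log2 difference 5.14, SE 0.345). Liver in turn was 5.12-fold above stomach (log2 difference 2.36, SE 0.345). This gene had the largest pancreas excess of the 5 over both other organs.

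The second ammonia-lyase gene, hal.1.L, read 40.6 and 22.7 in pancreas, 40.5 and 21.0 in liver and 22.5 and 39.9 in stomach. Its organ ranges overlapped almost completely, and the isolations differed more than the organs did. The ratio of pancreas to liver was 1.04 (log2 difference 0.06, SE 0.504) and that of pancreas to stomach 1.01 (log2 difference 0.02, SE 0.504). An SE of that size leaves each ratio between 0.714 and 1.47 within 1 SE. No detection calls came with the values, so whether this probe set was above background cannot be said. Its mean over the 6 arrays, 31.2, was under the 40th percentile of all probe sets (75.2), and the other 4 genes were over it.

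**Figure D1:**
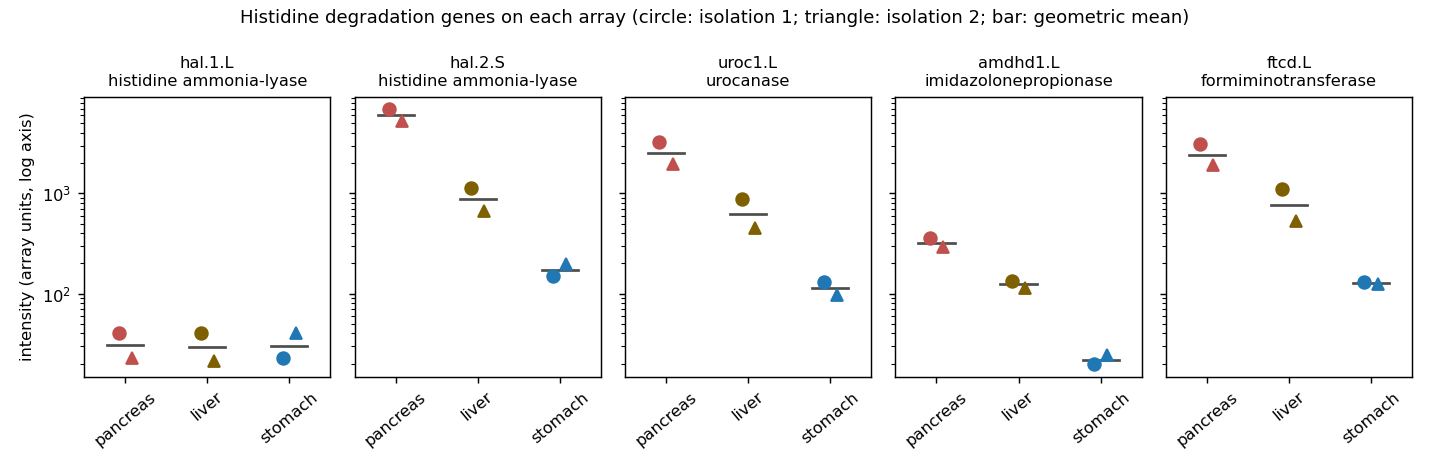
Intensity (array units, log axis) of the 5 genes in pancreas, liver and stomach; each point is 1 array, circles for isolation 1 and triangles for isolation 2, and bars are geometric means. For hal.2.S, uroc1.L, amdhd1.L and ftcd.L the organs form 3 separate steps, while hal.1.L lies between 21.0 and 40.6 in every organ.

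Urocanase, which acts on the product of the ammonia-lyase, had the same order of organs. Its gene uroc1.L read 3230 and 1952 in pancreas, 869 and 454 in liver and 130 and 97.5 in stomach. The organs were separate on every array, and isolation 1 gave the higher value in each organ. Pancreas was 4.0-fold above liver (log2 difference 2.00, SE 0.430) and 22.3-fold above stomach (log2 difference 4.48, SE 0.430). Liver was 5.57-fold above stomach.

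The imidazolonepropionase gene, amdhd1.L, had the smallest SE of the 5, though in stomach the isolations of ftcd.L lay closer together. It read 355 and 292 in pancreas, 134 and 114 in liver and 19.7 and 24.3 in stomach. Pancreas was 2.60-fold above liver (log2 difference 1.38, SE 0.231) and 14.7-fold above stomach (log2 difference 3.88, SE 0.231), the smallest excesses among the 4 genes. Liver was 5.67-fold above stomach. The stomach values were low, so the scale matters: with 16 added to each intensity pancreas was 8.91-fold and liver 3.69-fold above stomach.

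The last enzyme, the formiminotransferase of ftcd.L, read 3087 and 1931 in pancreas, 1095 and 525 in liver and 129 and 123 in stomach. The organs were again separate, with the closest gap between pancreas isolation 2 and liver isolation 1. Its pancreas level was 3.22-fold that of liver (log2 difference 1.69, SE 0.431) and 19.4-fold that of stomach (log2 difference 4.27, SE 0.431). Liver was 6.01-fold above stomach.

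Set against all genes, 4 of the 5 had pancreas arrays above liver arrays without overlap, where 33.2% of 7531 genes did. Pancreas lay above stomach in the same 4, against 36.9% of genes, and liver above stomach in the same 4, against 30.1%. The full order of pancreas above liver above stomach without overlap occurred in 416 genes (5.52%). With both ratios also above 2, 21 genes were left, and hal.2.S, uroc1.L, amdhd1.L and ftcd.L were 4 of them. Because the 5 genes were chosen with these values known, the counts describe them and test nothing. The median log2 difference of the 5 was 1.69 for pancreas minus liver, 4.27 for pancreas minus stomach and 2.48 for liver minus stomach, where the medians of all genes were 0.07, 0.12 and 0.04.

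The pancreas to liver ratio of hal.2.S was 6.06 within isolation 1 and 7.82 within isolation 2. For uroc1.L the ratios were 3.72 and 4.30, for ftcd.L 2.82 and 3.68 and for amdhd1.L 2.64 and 2.55. So hal.2.S was above the other 3 genes in both isolations, and uroc1.L above ftcd.L and amdhd1.L in both. The liver to stomach ratios of the 4 genes ran from 5.12 to 6.01, and with 16 added they were 4.77 for hal.2.S, 5.01 for uroc1.L, 3.69 for amdhd1.L and 5.45 for ftcd.L. Differences between the genes were not tested.

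The isolations differed in the same direction across the pathway in pancreas and liver. Within isolation 1 liver was 6.67-fold to 8.46-fold above stomach in the 4 genes, and within isolation 2 it was 3.42-fold to 4.71-fold above it. Pancreas was 18.0-fold to 46.6-fold above stomach in isolation 1 and 12-fold to 26.7-fold in isolation 2, and every one of the 4 genes had the larger ratio in isolation 1. The 4 genes share the same arrays, 1 per organ and isolation, so they are not replicates of an isolation. The share of all genes with a larger ratio in isolation 1 was not counted. All 5 genes read higher in isolation 1 than in isolation 2 in pancreas, by 1.22 to 1.79 times, and in liver, by 1.17 to 2.09 times. In stomach isolation 1 was the higher one for uroc1.L and ftcd.L alone. Of all genes, 50.8% were higher in isolation 1 in pancreas, 49.1% in liver, 54.8% in stomach and 31.0% in both pancreas and liver. Leaving out any 1 array moved no ratio of the 5 genes by more than 1.44 times.

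**Figure D2:**
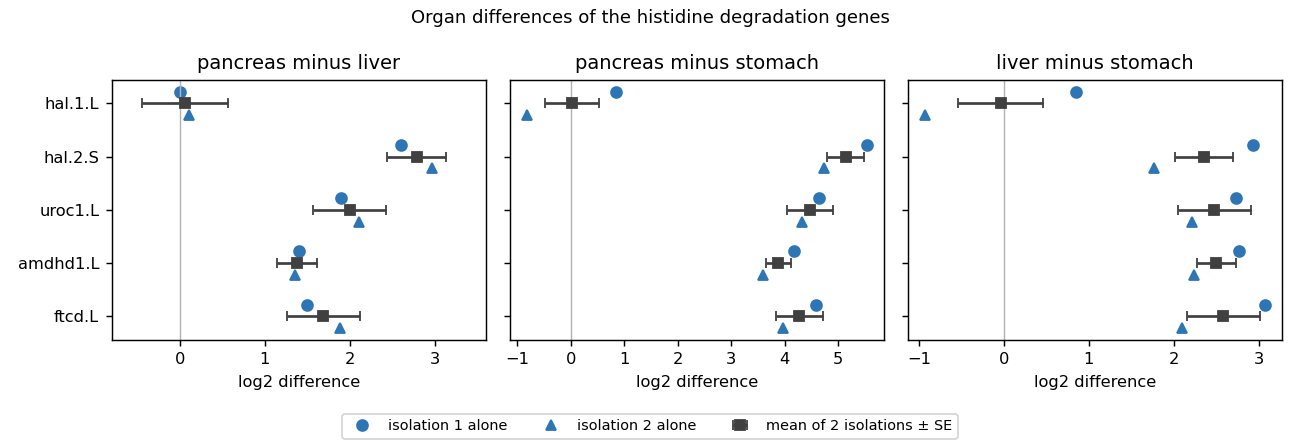
Log2 differences of the 5 genes for pancreas minus liver, pancreas minus stomach and liver minus stomach; squares with bars are the means of 2 isolations ± SE of the fit, circles isolation 1 alone and triangles isolation 2 alone. In hal.2.S, uroc1.L, amdhd1.L and ftcd.L all 3 differences are above 0 in both isolations, and hal.1.L sits at 0 with opposite signs in the 2 isolations against stomach.

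The summed organ markers had other orders of organs than the 4 genes. The 18 exocrine pancreas genes summed to intensities of 127765 and 84155 in pancreas, 646 and 919 in liver and 4617 and 5715 in stomach. Liver thus held 0.609% and 0.867% of the mean pancreas sum, a linear sum set mostly by the brightest genes. Gene by gene, the liver geometric mean was 14.5% of that in pancreas for hal.2.S, 25% for uroc1.L, 31.0% for ftcd.L and 38.5% for amdhd1.L. A sum and a geometric mean are unlike measures. The list genes pnlip.L, pnliprp2.L and cela3b.L differed little between the organs. In stomach the exocrine sum was 4.36% and 5.39% of the pancreas mean, beside 2.83% to 6.79% for the geometric means of the 4 genes. That stomach sum was mostly ctrb1.L, which read 2730 and 3351 there. Gene by gene, the median log2 difference of the 18 was 6.62 for pancreas minus liver and 4.96 for pancreas minus stomach. The exocrine sum was lower in liver than in stomach, as were the means of 14 of the 18 genes. The 4 histidine genes were higher in liver than in stomach. The 12 endocrine pancreas genes summed to 10977 and 9926 in pancreas, 356 and 429 in liver and 2206 and 1398 in stomach. The pancreas sum was mostly ins.L and ins.S, and 6 of the 12, sst.1.L and chga.L among them, had a lower mean in pancreas than in stomach (median log2 difference of the list -0.11). The 10 smooth muscle and mesenchyme genes summed to 3464 and 2395 in pancreas, 2956 and 2829 in liver and 16992 and 12510 in stomach. For 12 blood genes the sums were 12487 and 12195, 39911 and 39746, and 8456 and 9167 in the same order of organs. The part of such tissue in the organ differences of the 4 genes was not tested.

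The 26 plasma protein genes of liver summed to 9478 and 3809 in pancreas, 184646 and 145819 in liver and 15499 and 13715 in stomach. Gene by gene, pancreas and stomach had the other order, with a median log2 difference of 0.91 for pancreas minus stomach. Liver stayed highest, at a median of -5.67 for pancreas minus liver. The pancreas arrays held 5.74% and 2.31% of the mean liver sum, and the 4 histidine genes were higher in pancreas than in liver. Whether tissue carried over between organs had a part in the levels of the 4 genes was not tested. Between the pancreas arrays 23 of the 26 plasma protein genes were higher in isolation 1, with a median ratio of 4.28, and 14 of the 18 exocrine genes, with a median ratio of 1.49. In liver 24 of the 26 plasma protein genes were higher in isolation 1 (median ratio 1.25). Of all genes, 50.8% were higher in isolation 1 in pancreas and 49.1% in liver. The 8 stomach markers went the other way between the pancreas arrays, at 0.981% of the mean stomach sum in isolation 1 and 5.23% in isolation 2 (median ratio of isolation 1 to isolation 2 0.352). The part of these shifts in the higher isolation 1 values of the histidine genes was not tested. No marker of these lists was listed at 0.

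**Figure D3:**
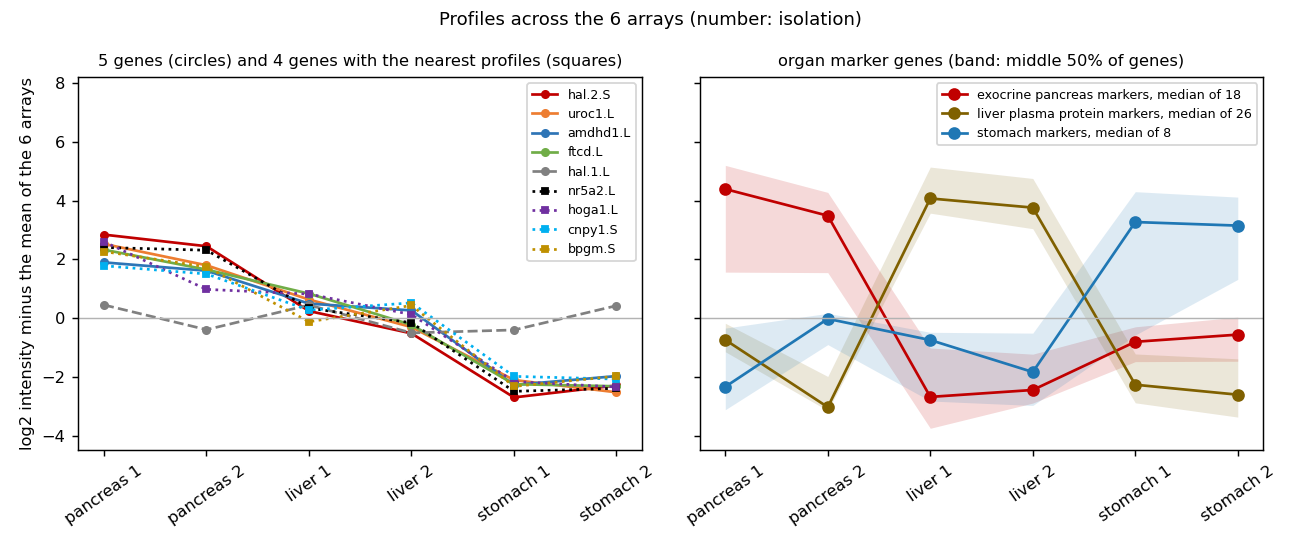
Log2 intensity minus the mean of the 6 arrays, by organ and isolation; left, the 5 histidine genes and the 4 genes with the nearest profiles to hal.2.S, uroc1.L, amdhd1.L and ftcd.L; right, medians of 18 exocrine pancreas, 26 liver plasma protein and 8 stomach markers with bands from the lower to the upper quartile of the genes. The 4 histidine genes step down from pancreas over liver to stomach, whereas exocrine markers are lowest in liver and plasma protein markers highest there.

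Likeness between profiles was measured as the root mean square difference of log2 intensities over the 6 arrays, each gene centred on its own mean, with 5248 genes ranked, those with a mean of at least 100 in an organ and the 5 themselves. Distances among hal.2.S, uroc1.L, amdhd1.L and ftcd.L ran from 0.168 to 0.651. The nearest of all genes to uroc1.L was ftcd.L, and the nearest to ftcd.L was uroc1.L, at 0.168. To hal.2.S, uroc1.L ranked 2, ftcd.L 3 and amdhd1.L 7. To uroc1.L, amdhd1.L ranked 4 and hal.2.S 5. To amdhd1.L, ftcd.L ranked 3, uroc1.L 4 and hal.2.S 17. To ftcd.L, amdhd1.L ranked 3 and hal.2.S 8. The distances of hal.1.L from the other 4 ran from 1.63 to 2.10. Because the 5 genes were chosen with these values known, the ranks and distances describe them and test nothing.

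Outside the pathway, nr5a2.L was nearest to hal.2.S (0.259) and to uroc1.L (0.302). It encodes an orphan nuclear receptor known in mammals from liver and exocrine pancreas. It read 554 and 519 in pancreas, 133 and 93.8 in liver and 18.6 and 20.0 in stomach, again in 3 separate steps. A further probe set of nr5a2.L read 105 and 74.0 in pancreas, 102 and 62.3 in liver and 7.0 and 21.7 in stomach, so there pancreas and liver overlapped. The nearest to ftcd.L was hoga1.L (0.331), which encodes an aldolase of hydroxyproline breakdown. It read 1499 and 487 in pancreas, 436 and 269 in liver and 55.4 and 48.7 in stomach. Its pancreas isolation 2 thus lay close to its liver isolation 1. The nearest to amdhd1.L was cnpy1.S (0.199), of the canopy family, followed by bpgm.S (0.307), the bisphosphoglycerate mutase. For hal.1.L the nearest were cuedc2.S (0.242) and rybp.L (0.244). All these distances share the same 6 arrays.

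In RefSeq's list of genes for the v10.1 assembly of the frog genome, amdhd1.L, hal.2.L and hal.1.L are listed next to each other on chromosome 3L. The outer genes of that row had unlike profiles here, amdhd1.L with the 3-step order and hal.1.L without it. The middle gene, hal.2.L, was not analysed here, as no probe set bore its symbol. Its counterpart hal.2.S lies on chromosome 3S beside snrpf.S, a gene of the splicing machinery that read 833 and 793 in pancreas, 388 and 434 in liver and 493 and 481 in stomach. The table places uroc1.L on 4L and ftcd.L on 9_10L. Beside ftcd.L lies col6a2.L, which was highest in stomach. It read 215 and 160 in pancreas, 297 and 188 in liver and 894 and 761 in stomach. Whether the hal.2.S probe set also reads hal.2.L transcripts was not tested.

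Genes that use, supply or receive the products of histidine breakdown were tested with limma, adjusted over all 15491 probe sets, and a gene was called at an adjusted p under 0.05. Such a p measures only the spread between the 2 isolations, pooled over the 3 organs and drawn toward that of all probe sets. The lists were written with earlier results of these data known, so the counts of calls describe the lists and test nothing about them. At an unadjusted p under 0.05 in limma, 1971 of all 15491 probe sets were higher and 1763 lower in pancreas than in liver. For pancreas against stomach these counts were 2182 and 1811, and for liver against stomach 1904 and 1833. Of 7 genes of other histidine use and transport, 1 was higher in pancreas than in liver, where 3.27% of all genes were, and none was lower (3.96% of all genes). This gene was slc38a5.S, which encodes an amino acid carrier that takes up glutamine and histidine. It read 1537 and 971 in pancreas, 235 and 167 in liver and 607 and 436 in stomach, with pancreas above both other organs on every array. The pancreas level was 6.17-fold that of liver (adjusted p = 0.0206). It was 2.37-fold that of stomach, which missed the threshold (adjusted p = 0.0984) and passed it with the replicate number as a block (adjusted p = 0.0374). None of the 7 passed between pancreas and stomach in limma, and 1 had an unadjusted p under 0.05. None passed between liver and stomach either, where 1 was higher and 2 were lower in liver at an unadjusted p under 0.05. With the replicate number as a block slc38a5.S passed there too, lower in liver than in stomach (adjusted p = 0.0254). The median log2 difference of the 7 was 0.74 against liver and 0.40 against stomach. The mitochondrial histidyl-tRNA synthetase gene hars2.L, with 1964 ± 101 in pancreas, 1519 ± 51.9 in liver and 1492 ± 40.6 in stomach, passed in no pair of organs.

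Genes of folate and one-carbon metabolism, the pool that the formimino group feeds, split between the organs. Of 14, 1 was higher in pancreas than in liver and 3 were lower (median log2 difference -0.72). Against stomach 1 was higher in pancreas (4.41% of all genes) and none lower (4.9%), at a median of 0.72. At an unadjusted p under 0.05 in limma, 6 were higher and 2 lower, beside 2182 and 1811 of all 15491 probe sets. Between liver and stomach 5 were higher in liver (5.84% of all genes) and 1 lower (5.36%). The pancreas level of atic.L, for a purine synthesis enzyme that uses formyl folate, was 7.74-fold that of liver, and its other probe set 3.46-fold (adjusted p = 0.0127 and 0.0576). The folate enzyme gene mthfs.L was 3.64-fold lower in pancreas than in liver. The folate carrier gene slc46a1.L read 11.4 and 22.5 in pancreas and 65.2 and 67.7 in liver, where background is unknown. It was 4.14-fold lower in pancreas, 2.54-fold with 16 added, and it was not tested when dim probe sets were left out. The glycine decarboxylase gene gldc.S stood 4.13-fold higher in pancreas than in stomach.

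**Figure D4:**
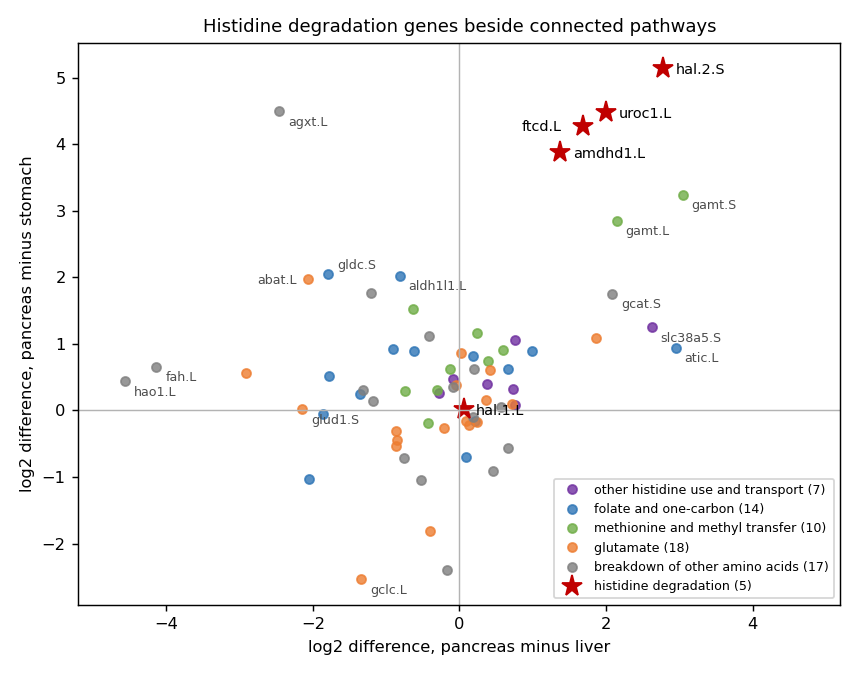
Log2 difference of pancreas minus stomach against that of pancreas minus liver; stars are the 5 histidine degradation genes and circles the genes of 5 connected lists, with the number of genes in brackets. The 4 genes hal.2.S, uroc1.L, amdhd1.L and ftcd.L lie at the upper right, above 1.38 on the x axis and 3.88 on the y axis, with no gene of the 5 lists beyond them on both axes.

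Of 10 genes of the methionine cycle and methyl transfer, 2 were higher in pancreas than in liver and 3 higher than in stomach (median log2 differences 0.06 and 0.82). None was lower, with 1 against liver and 0 against stomach at an unadjusted p under 0.05. The higher ones were gamt.S and gamt.L, for the methyltransferase of creatine synthesis, 8.25-fold and 4.42-fold above liver and 9.45-fold and 7.22-fold above stomach, with pemt.L, 2.88-fold above stomach. Of 18 glutamate genes, none was higher in pancreas than in liver (1 at an unadjusted p under 0.05) and 3 were lower. These included glud1.S, for the glutamate dehydrogenase that oxidises the end product of the pathway. It read 925 and 658 in pancreas, 4542 and 2617 in liver and 801 and 744 in stomach, 4.42-fold lower in pancreas than in liver, where ftcd.L was higher, and like ftcd.L it was higher in liver than in stomach. The GABA transaminase gene abat.L was 4.18-fold lower and the glutathione synthesis gene gclc.L 2.52-fold lower than in liver. Against stomach abat.L was 3.93-fold higher, and gclc.L and gclm.L were 5.80-fold and 3.50-fold lower in pancreas. The glutamate list gene aldh4a1.L, 3.65-fold higher in pancreas than in liver, missed the threshold in limma (adjusted p = 0.0696). It passed with dim probe sets left out (0.0168) and with 16 added (0.0214). Both settings also called got2.L lower in pancreas than in liver, and the second gad1.2.L. A further probe set of aldh4a1.L is not given here.

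Of 17 genes for the breakdown of other amino acids, 1 was higher in pancreas than in liver and 3 were lower. The threonine-degrading gcat.S was 4.25-fold higher. Lower in pancreas were hao1.L (glycolate oxidase) by 23.7-fold, the tyrosine-degrading fah.L by 17.6-fold and the alanine-glyoxylate aminotransferase gene agxt.L by 5.52-fold. The pancreas values of hao1.L were low, 42.2 and 64.6 against 1246 and 1222 in liver. With 16 added hao1.L was 18.3-fold lower. The 4 histidine genes with the 3-step order thus stood on the other side of liver from hao1.L, fah.L and agxt.L, and on the same side as gcat.S. At an unadjusted p under 0.05 in limma, 2 genes of the list were higher in pancreas than in liver and 5 lower. Of all 15491 probe sets, 1971 were higher and 1763 lower at that p. Against stomach 2 genes of the list were called higher, agxt.L (22.5-fold) and gcat.S (3.36-fold), and pccb.L was 2.07-fold lower. The medians of the list were -0.42 against liver and 0.31 against stomach, and for glutamate genes they were -0.13 and -0.07.

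The adjusted p of the 22 calls of the 17 named list genes ran from 0.00704 for hao1.L to 0.0486 for pccb.L. With 2 arrays an organ, each of these calls ended when 1 array or another was left out, and so did that of gcat.S against liver, without either pancreas or either liver array (adjusted p from 0.0741 to 0.121). For slc46a1.L, mthfs.L, gamt.L, abat.L, gclc.L and agxt.L against liver and gcat.S, gclm.L, pccb.L and pemt.L against stomach, each of the 6 arrays had this effect (adjusted p from 0.0506 to 0.206). Against liver, the call of slc38a5.S ended without either pancreas or either liver array (0.0646 to 0.0946), that of atic.L without liver replicate 1 or either pancreas array (0.0542 to 0.0759), and that of glud1.S without any array but liver replicate 2 (0.0753 to 0.144). That of fah.L ended without liver replicate 1 or pancreas replicate 2 (0.0583 and 0.0529), and those of hao1.L and gamt.S without liver replicate 1 (0.0506 and 0.0620). Against stomach, gldc.S and abat.L lost the call without either pancreas or either stomach array (0.118 to 0.192), agxt.L, gamt.S, gamt.L and gclc.L without pancreas replicate 1 or stomach replicate 1 (0.0645 to 0.0894). Stomach replicate 2 did the same for gamt.S and gamt.L (0.0525 and 0.0704), and pancreas replicate 2 for gclc.L (0.0508). With the replicate number as a block, the calls of slc46a1.L, abat.L, gclc.L and agxt.L against liver and of abat.L, gclm.L and pccb.L against stomach ended (0.0536 to 0.0637). The block also added calls in these lists. Lower in pancreas than in liver were gldc.S (adjusted p = 0.0385) and amt.L, of the glycine cleavage system (0.0217). Against stomach aldh1l1.L, for a formyl folate dehydrogenase, was higher (0.0289) and hpd.L, of tyrosine breakdown, lower in pancreas (0.0311). The values of hpd.L were very low, 1.77 and 3.04 in pancreas and 7.76 and 19.3 in stomach, where background is unknown. Without the block limma did not call hpd.L (adjusted p = 0.108). The genes amt.L, aldh1l1.L, hpd.L, aldh4a1.L, got2.L and gad1.2.L were named after their values were seen.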

How the data were processed

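Total RNA of 3 organs was hybridised to Affymetrix Xenopus laevis arrays, 1 array for each of 2 isolations. The values were deposited by the authors as intensity per probe set on a linear scale, with a median of 100 on every array, after RMA per the submitters' processing notes. Further upstream steps and detection calls were not given in the sources used here. No depth applies: precision is limited by how many arrays there are.

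Of 15611 probe sets, 120 controls were left out. Of the 15491 left, 9304 had 1 symbol in the platform annotation, 195 several and 5992 none, and genes were named only from those with 1. Of these, 9227 were found in the RefSeq v10.1 gene table. Each of 7531 genes was represented by its probe set of highest mean intensity. The members and gene lists were chosen with earlier results of these data known.

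Log2 intensities were fitted with limma 3.58.1 in R 4.3.3 over all 6 arrays, with Benjamini-Hochberg adjustment and a threshold of 0.05. The fit had 3 residual degrees of freedom, from the 3 organs together. Moderation in limma added 2.14 prior degrees of freedom from the spread of all probe sets. It held organ means and no block for the isolation, so the SE and p-values of the main fit leave the pairing of the arrays out. Values were summarised in Python 3.11.15. The limma fit without a block was tested on simulated data, which held no effect shared by the arrays of an isolation. Named list genes were, per list and pair of organs with pancreas, the 3 called genes with the largest absolute difference or, with no call, the 2 with the highest mean. The nearest 2 genes to each member and the brightest marker of each organ list were named too. Neighbouring genes on the chromosomes were chosen after values were seen.

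Array titles with the same number share an experiment code, and deviations from the organ means correlated between same-numbered arrays at 0.173 for pancreas and liver, 0.197 for pancreas and stomach and 0.152 for liver and stomach, so the numbers pair the arrays. Alternatives were the replicate number as a block, leaving out probe sets under the 40th percentile, adding 16 before the log, quantile normalization, a plain two-sample test, an analysis of variance with a ratio above 3 and leaving out each array.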

Additional observations from a re-analysis of the deposited data

How the results depend on the processing

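The log2 differences of hal.2.S, uroc1.L, amdhd1.L and ftcd.L kept their sign under each alternative run, and those of hal.1.L changed sign when single arrays were left out. With 16 added, amdhd1.L had 3.16 for pancreas minus stomach and 1.88 for liver minus stomach. Leaving out probe sets under the 40th percentile removed hal.1.L. Calls over all probe sets, a different measure, changed widely with the arrays and the setting. Pancreas against liver gave 419 higher and 550 lower, 963 and 853 with dim probe sets left out, 837 and 883 with 16 added, and 50 to 213 and 55 to 339 without 1 array. Pancreas against stomach gave 556 and 680, 1207 higher with dim probe sets left out, 1047 and 1082 with 16 added, 336 higher by analysis of variance with a ratio above 3, and 0 to 289 and 0 to 442 without 1 array. The 0 counts by limma came when replicate 1 of pancreas or of stomach was left out, where 1396 and 1423, and 1568 and 1247, had an unadjusted p under 0.05. Liver against stomach gave 766 and 719, and 193 to 483 and 110 to 483 without 1 array. The plain two-sample test called 0 and 0, 1 and 0, and 0 and 0 in the 3 pairs after adjustment, with 1520 and 1254, 1747 and 1289, and 1453 and 1270 before it. Arrays left out mean fewer samples in the fit, and the cause of the other shifts was not tested.

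List calls, in either direction, are given for pancreas against liver, pancreas against stomach and liver against stomach in that order. Genes of other histidine use had 1, 0 and 0; with the replicate block 1, 1 and 1; with dim probe sets left out 2, 1 and 1; with 16 added 1, 1 and 1; without 1 array 0 to 1, 0 and 0. Folate genes had 4, 1 and 6; in the second pair 2 with the replicate block, 5 with dim probe sets left out, 4 with 16 added and 2 with quantile normalization; without 1 array 0 to 1, 0 to 1 and 1 to 6. Methyl genes had 2, 3 and 1; in the third pair 2 with dim probe sets left out and 2 with 16 added; without 1 array 0 to 1, 0 to 2 and 0 to 1. Glutamate genes had 3, 3 and 4; with the replicate block 1, 1 and 2; in the first pair 5 with dim probe sets left out and 6 with 16 added; without 1 array 0 to 1, 0 to 2 and 0 to 3. Other amino acid genes had 4, 3 and 7; without 1 array 0 to 3, 0 to 1 and 3 to 5.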

Other observations

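Of the 21 genes with pancreas above liver above stomach, no overlap and both ratios above 2, 17 lay outside histidine degradation, and 13 of the 17 had a pancreas mean of at least 100. The 17 were picked after their values were seen and carry no test. Both copies of nr5a2 and both copies of cldn6.2, which encodes a claudin of tight junctions, were among them, each read from its brightest probe set. The further probe set of nr5a2.L lacked the order, as pancreas and liver overlapped there. That of nr5a2.S is not given here. The short copy nr5a2.S read 612 and 667 in pancreas, 172 and 240 in liver and 13.0 and 33.9 in stomach. For cldn6.2.L the values were 4279 and 3638 in pancreas, 1555 and 1351 in liver and 253 and 671 in stomach.

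The steepest of the 17 between pancreas and liver was stxbp6.L, for a syntaxin-binding protein, with 2125 and 2059 in pancreas, 64.6 and 30.6 in liver and 9.46 and 9.21 in stomach. Its pancreas level was 47-fold that of liver, against 6.89-fold for hal.2.S. The liver and stomach values of stxbp6.L were low, where background is unknown. Another enzyme gene of the set was etnppl.L, for a phosphoethanolamine lyase, which read 463 and 209 in pancreas, 90.2 and 48.2 in liver and 36.4 and 21.5 in stomach. These are the values of its brightest probe set, and those of its further one are not given here.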
